A study of Mus musculus with 29 samples.

Results

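The genes described here are 38 interferon response genes, found by gene symbol among the 36172 gene rows of the count table. The list named 39 genes, chosen as known members of the interferon system and with earlier results of these data known. Of these, 1 gene, Ifi27, is left out because its symbol matched no row. By role, the 38 comprised 4 receptor chains, 4 transcription factors, 6 nucleic acid sensors and their regulators, 8 antiviral effectors, the 2 genes of the ISG15 system, 3 membrane restriction factors, 3 other interferon-induced genes, 5 GTPases and the trio Parp9, Parp14 and Dtx3l.

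Interferons are secreted proteins that cells release on sensing viral nucleic acid or, for interferon gamma, on activation of lymphocytes. Type I interferons bind the IFNAR1 and IFNAR2 chains and act through a complex with STAT2 and IRF9 on the interferon-stimulated response element (ISRE) in the promoters of induced genes, whereas interferon gamma binds IFNGR1 and IFNGR2 and acts through the gamma-activated site (GAS). In the unchallenged brain these genes run at a low tonic level, and both microglia and astrocytes can raise them strongly on stimulation.

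RNA was taken from brains of mice with the genotype Cx3cr1-Cre/Ert2+; NuTRAP+ or Aldh1l1-Cre/Ert2+; NuTRAP+, about 3 months old and heterozygous for both alleles by the study's methods. In both lines, and so in every group below, tamoxifen had switched on an EGFP-tagged ribosomal protein, in cells with an active Cx3cr1 promoter (microglia, but also other Cx3cr1-expressing macrophages) or an active Aldh1l1 promoter (astrocytes). Anti-GFP beads split the cleared homogenate of a hemisected brain (input) into a bead-bound positive fraction, called translating ribosome affinity purification (TRAP), and an unbound negative fraction. Whole tissue is brain RNA isolated conventionally. The 29 libraries were 6 positive, 6 negative, 6 input and 5 whole tissue libraries of the Cx3cr1-NuTRAP line and 3 positive and 3 negative libraries of the Aldh1l1-NuTRAP line. Each library is from 1 mouse, the fractions of a mouse share its number, and the labels name no challenge besides the induction, no sex and no batch.

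Library totals ranged from 4260949 counts, in the whole tissue of mouse 210, to 26857866 counts. The summed level of 6 microglial markers was 2366 to 5646 CPM (counts per 1000000 counts of the library) in the Cx3cr1 positive fraction against 302 to 339 CPM in its input. The 6 astrocyte markers summed to 10356 to 17794 CPM in the Aldh1l1 positive fraction against 2237 to 3061 CPM in its negative fraction. Markers of blood cells were scarce throughout: the 6 monocyte and neutrophil markers summed to at most 5.64 CPM and the 6 lymphocyte markers to at most 2.43 CPM in any library. These are bulk samples, in which fewer cells of a type and less RNA per cell cannot be told apart.

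Promoter sequences from RefSeq (GRCm38.p6, 250 bases before to 50 after the transcription start) matched 32 of the 39 listed genes. The core of the ISRE, GAAANNGAAA on either strand, occurred in the promoters of 17 of these 32, and in 3.99% of all 27025 genes with a promoter in the table. The palindromic GAS core, TTCNNNGAA, occurred in 12 of the 32 and in 9.55% of all genes; it overlapped the ISRE core in Bst2 and Ifitm3. All 5 GTPases and all 3 membrane restriction factors held the ISRE core, whereas 0 of the 4 receptor genes did. A match is a description of the letters in this window, not a measured binding site. Members without the ISRE core, such as Adar, Irf1 and Ifnar2, also differed between fractions or lines and are not shown. Isg15 and Ifitm3, which are shown, gave no difference between the lines that passed the test used below. The 8 windows below were selected by hand from members that hold the core. Each is written 5′ to 3′ on the gene's strand, with every ISRE core in capitals.
Isg15, chr4:156200840-156200919, minus strand: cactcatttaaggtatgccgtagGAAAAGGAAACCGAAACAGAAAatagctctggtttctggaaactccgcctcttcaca
Ifit3, chr19:34583372-34583451, plus strand: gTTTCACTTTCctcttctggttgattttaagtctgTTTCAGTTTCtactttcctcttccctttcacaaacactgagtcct
Ifitm2, chr7:140955963-140956042, minus strand: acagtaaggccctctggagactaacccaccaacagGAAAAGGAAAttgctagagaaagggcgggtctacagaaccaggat
Ifitm3, chr7:141010715-141010777, minus strand: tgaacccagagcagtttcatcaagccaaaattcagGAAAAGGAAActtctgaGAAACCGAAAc
Oas1a, chr5:120907496-120907574, minus strand: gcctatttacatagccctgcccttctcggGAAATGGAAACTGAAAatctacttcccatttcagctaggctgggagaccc
Eif2ak2, chr17:78882543-78882589, minus strand: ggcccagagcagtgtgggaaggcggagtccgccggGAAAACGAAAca
Gbp3, chr3:142559970-142560049, plus strand: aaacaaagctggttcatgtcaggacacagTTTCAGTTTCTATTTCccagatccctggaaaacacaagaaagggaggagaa
Irgm1, chr11:48871400-48871479, minus strand: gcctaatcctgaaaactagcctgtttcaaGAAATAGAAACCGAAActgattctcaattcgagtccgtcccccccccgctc

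Isg15, a classic ISRE target, held 3 overlapping cores between 78 and 57 bases before its start. A longer stretch, from 250 bases before to 30 bases after the start, is given for Bst2 and Ifngr1, an effector and a receptor that both stood high in the Cx3cr1 positive fraction. Bst2 held a pair of overlapping ISRE cores 130 to 115 bases before its start, and Ifngr1 held none.
Bst2, chr8:71537443-71537722, minus strand: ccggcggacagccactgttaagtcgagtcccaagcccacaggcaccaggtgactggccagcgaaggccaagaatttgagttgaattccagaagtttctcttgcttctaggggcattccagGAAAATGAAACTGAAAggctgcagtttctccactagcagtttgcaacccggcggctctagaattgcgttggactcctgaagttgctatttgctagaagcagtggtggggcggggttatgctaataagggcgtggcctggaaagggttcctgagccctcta
Ifngr1, chr10:19591699-19591978, plus strand: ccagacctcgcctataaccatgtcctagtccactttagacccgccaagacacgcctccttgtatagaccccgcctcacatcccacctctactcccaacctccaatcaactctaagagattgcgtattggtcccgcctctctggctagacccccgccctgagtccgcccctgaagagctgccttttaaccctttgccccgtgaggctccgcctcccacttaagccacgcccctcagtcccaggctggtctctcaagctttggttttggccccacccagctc

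Before the fractions are compared, the levels show which arm of the system was present at all. None of 7 interferon genes, including Ifnb1, Ifng and 3 members of the alpha family, exceeded 4.24 counts in any library, so ligand transcripts were near the detection limit of every fraction. Divided by exon length, Adar, which edits double-stranded RNA, was highest in the Cx3cr1 positive fraction at 26.7 ± 1.9 CPM per kb (mean ± SD, n = 6). Ifitm3, which blocks viral entry at endosomal membranes, followed at 25.5 ± 8.5 CPM per kb, Ifngr1 at 22.3 ± 7.4 CPM per kb and Bst2, which tethers budding virions, at 21.8 ± 6.5 CPM per kb. The library ranges of these neighbours overlapped, so their order is not resolved. In the Aldh1l1 positive fraction the order began with Ifitm2 at 27.6 ± 8.7 and Ifitm3 at 27.6 ± 9.9 CPM per kb (n = 3), followed by Ifit3, which binds viral RNA with its relatives, at 19.8 ± 2.3 CPM per kb. There Adar stood at 9.37 ± 2.9 CPM per kb. At the other end, the virus sensor Zbp1 and the antiviral GTPase Mx1 reached at most 28 counts in any library and Ifi44, an induced gene of unsettled function, at most 73, and these 3 passed the filter for testing in 0 of the 9 comparisons.

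**Figure D1:**
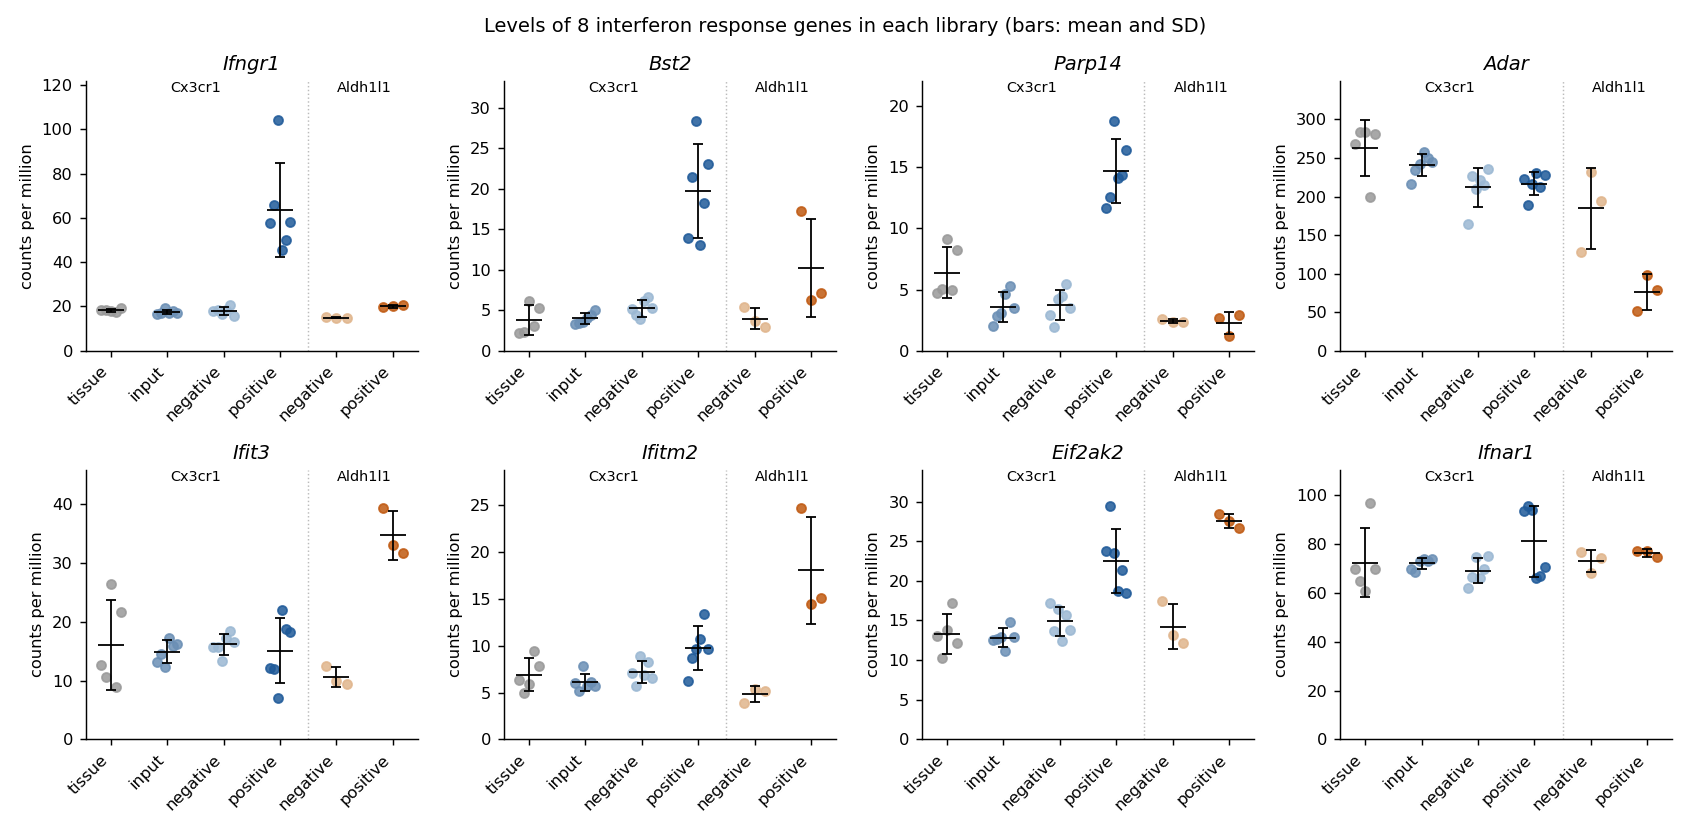
Levels in CPM (linear axes from 0) of 8 interferon response genes in each of the 29 libraries, by line and fraction; points are libraries and bars are the mean and SD. Ifngr1, Bst2 and Parp14 lie above all other Cx3cr1 libraries in the Cx3cr1 positive fraction, Ifit3 and Ifitm2 are highest in the Aldh1l1 positive fraction, where Adar is lowest, and Ifnar1 in the Cx3cr1 positive fraction lies at 93.4 to 95.5 CPM in 3 mice and at 66.3 to 70.8 CPM in the other 3.

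The first comparison asked which interferon genes were higher in the Cx3cr1 positive fraction than in the homogenate. In the Cx3cr1 positive fraction, 23 of the 34 members tested were higher than in input and 0 were lower, at an adjusted p under 0.05 (edgeR quasi-likelihood test, Benjamini-Hochberg adjustment over all genes). Of all 13838 genes tested, 23.3% were higher and 25.6% lower. A gene was tested if all libraries of one of the compared groups held over 20 counts, and 3 of the 23 (Oas1a, Isg15 and Usp18) passed it only through the positive fraction, where they were higher, so these had to differ in that direction. The median log2 difference was 0.69 over the tested members and 0.00 over all genes.

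Of the receptor chains, Ifngr1 differed most. Its level was 45.7 to 104 CPM (median 57.9) in the Cx3cr1 positive fraction and 16.5 to 19.4 CPM (median 17.1) in input, and the ranges did not overlap. The log2 difference was 1.88 ± 0.17 (SE, adjusted p = 1.61e-06, edgeR). Ifnar2 ran at 30.4 to 44.1 CPM against 16.6 to 19.9 CPM, also without overlap, a log2 difference of 0.93 ± 0.10 (adjusted p = 5.19e-06, edgeR). Their partner chains moved little: Ifngr2 was higher by 0.27 ± 0.07 with overlapping ranges (adjusted p = 0.0093, edgeR), and Ifnar1 differed by 0.19 ± 0.11, which did not pass (adjusted p = 0.16, edgeR).

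Among the transcription factors, Irf1, a first-wave factor of the gamma response, was 11.3 to 18.2 CPM in the positive fraction and 5.24 to 8.77 CPM in input, and Irf9, the DNA-binding partner of STAT2, was 14.7 to 31.8 against 11.3 to 13.4 CPM. Neither pair of ranges overlapped, and the log2 differences were 1.11 ± 0.16 for Irf1 and 0.83 ± 0.17 for Irf9. Stat2 spread from 31.2 to 78.5 CPM in the positive fraction, around the 37.7 to 47.3 CPM of input, and Irf7, the amplifier of type I interferon production, spread from 1.42 to 5.69 CPM around 1.66 to 4.96 CPM. Stat2 (log2 difference 0.37 ± 0.23) and Irf7 (0.34 ± 0.36) did not pass.

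The sensors Eif2ak2, Ddx58 and Ifih1 and the regulator Trim25 were higher, by less than Ifngr1 and Ifnar2 and by more than Ifngr2. Eif2ak2, the kinase PKR that stops translation on binding double-stranded RNA, was 18.5 to 29.4 CPM against 11.1 to 14.8 CPM, with no overlap and a log2 difference of 0.82 ± 0.12. The cytosolic RNA sensors Ddx58 (RIG-I) and Ifih1 (MDA5) were higher by 0.58 ± 0.15 and 0.40 ± 0.15, and Trim25, the ubiquitin ligase that activates RIG-I, by 0.47 ± 0.11. Their library ranges overlapped with input, and for Ifih1 the call was lost with the mouse block and without mouse 194, 209 or 277 (adjusted p up to 0.157 over the alternatives, edgeR or DESeq2). Adar ran at 189 to 230 CPM against 216 to 258 CPM and did not pass (log2 difference -0.14 ± 0.07).

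Of the antiviral effectors Oas1a alone was called. Oas1a, which makes the second messenger that activates RNase L, was 1.49 to 3.82 CPM in the positive fraction and 0.356 to 0.894 CPM in input, a log2 difference of 2.08 ± 0.31 between ranges that did not overlap; it passed the filter only through the positive fraction, so its direction was set by the filter. The 3 IFIT genes, which bind non-self RNA ends, gave no call: Ifit3 differed by 0.02 ± 0.21, Ifit1 by 0.39 ± 0.28 and Ifit2 by -0.21 ± 0.12. Oasl2, a relative of the OAS enzymes, differed by 0.56 ± 0.23 (adjusted p = 0.0599, edgeR), and with the mouse as a replicate block it passed (adjusted p = 0.00621, edgeR). Rsad2, which makes a chain-terminating nucleotide, differed by 0.06 ± 0.44.

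The remaining classes held most of the large differences. Bst2 was 13.1 to 28.4 CPM (median 19.8) in the positive fraction against 3.34 to 5.05 CPM (median 3.81) in input, which is 4.97-fold (log2 2.31 ± 0.20, adjusted p = 4.51e-07, edgeR), the largest difference of any member in this comparison. Parp14, an ADP-ribosyltransferase of macrophage signalling, was 11.6 to 18.8 CPM against 2.04 to 5.31 CPM (log2 2.04 ± 0.21, adjusted p = 2.86e-06, edgeR). Every positive library of both genes exceeded every input library. Parp9 and its ubiquitin ligase partner Dtx3l, adjacent genes that overlap on opposite strands of chromosome 16, were higher by 1.17 ± 0.18 and 0.99 ± 0.17. Ifi35 was higher by 1.67 ± 0.16, again with no overlap.

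Smaller differences were measured for the rest. Ifitm3 and Ifitm2 were higher by 0.78 ± 0.19 and 0.69 ± 0.16, and the pro-apoptotic Xaf1 by 0.35 ± 0.12. The Xaf1 call was lost in 7 of 12 alternatives, among them the mouse block and those without mouse 192, 209, 210 or 277. Of the GTPases, which attack vacuoles around intracellular microbes, Gbp7 (1.21 ± 0.16), Igtp (1.05 ± 0.17) and Gbp3 (0.69 ± 0.19) were higher, and Gbp2 (0.26 ± 0.20) and Irgm1 (0.34 ± 0.15) did not pass; Irgm1 passed with the mouse block (adjusted p = 0.033, edgeR). Usp18, the protease that removes ISG15 from proteins, was higher by 1.14 ± 0.25 and Isg15, the ubiquitin-like modifier itself, by 1.01 ± 0.33. Isg15 ranged from 2.05 to 5.20 CPM in the positive fraction and from 0.470 to 2.53 CPM in input, and its call was lost without mouse 210 or mouse 277 (adjusted p up to 0.0749 over the alternatives, edgeR or DESeq2).

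Markers of other cells moved with this comparison. All 6 markers of border-associated macrophages, which also use the Cx3cr1 promoter, were higher in the positive fraction, summing to 72.9 to 237 CPM against 10.8 to 26.5 CPM in input. Endothelial markers summed to 74.9 to 177 CPM against 86.3 to 99.3 CPM, and 3 of the 6 were higher. Pericyte and smooth muscle markers summed to 50.2 to 125 CPM against 123 to 135 CPM, with Acta2 listed at 0 in every library, and 3 of 5 tested were lower. Of the oligodendrocyte markers 5 of 6 were lower (sums of 1225 to 3340 against 4242 to 4912 CPM), as were 4 of 6 astrocyte markers (2019 to 3029 against 3147 to 3628 CPM). Neuron markers summed to 4479 to 6906 against 6223 to 6570 CPM, with 1 of 6 lower. Choroid plexus and ependymal markers summed to 226 to 1052 against 838 to 1011 CPM, with 2 of 6 lower. The part of these cells in the values above was not tested.

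Against the unbound RNA of the same mice, 19 of 34 tested members were higher in the Cx3cr1 positive fraction and 0 were lower, where 12.8% of all genes were higher and 11.6% lower. The median log2 difference was 0.58 over tested members and -0.02 over all genes, and 2 of the 19 (Oas1a and Usp18) passed the filter only through the positive fraction. Parp14 (1.98 ± 0.20), Bst2 (1.93 ± 0.20), Ifngr1 (1.85 ± 0.18) and Parp9 (1.50 ± 0.17) had the largest differences among the called members that passed the filter in both groups, and Oas1a, which did not, differed by 1.78 ± 0.36. Isg15 (0.52 ± 0.29), Ifitm2 (0.45 ± 0.16) and Ifitm3 (0.47 ± 0.21), called against input, did not pass here. In this comparison all 6 border-associated macrophage markers and 2 of 6 endothelial markers were higher. Lower were 5 of 6 oligodendrocyte, 4 of 6 astrocyte, 2 of 6 choroid plexus and ependymal and 1 of 5 tested pericyte and smooth muscle markers. The part of these cells was not tested. With the mouse block Ifngr2 was no longer called (adjusted p = 0.108) and Oasl2 (adjusted p = 0.0373) and Irgm1 (adjusted p = 0.0295, edgeR) were. This comparison and those with input and whole tissue share the positive libraries, so they are not independent of each other.

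Against whole tissue, 15 of 34 tested members were higher in the Cx3cr1 positive fraction and 3 were lower, with 27.5% of all genes higher and 24.3% lower. Of the 15, 5 (Bst2, Oas1a, Ifi35, Igtp and Parp9) passed the filter only through the positive fraction; whole tissue held the shallowest library. Bst2 (2.37 ± 0.31), Ifngr1 (1.83 ± 0.20) and Parp14 (1.20 ± 0.20) again had large differences, and Stat2 was called (0.75 ± 0.27, adjusted p = 0.0306, edgeR) but lost its call with the mouse block and without mouse 155, 192, 194 or 277. The lower members were Gbp2 (-0.59 ± 0.21), Ifit2 (-0.56 ± 0.13) and Adar (-0.26 ± 0.10). In the same comparison 4 of 6 endothelial, 4 of 5 tested pericyte and smooth muscle and all 6 oligodendrocyte and astrocyte markers were lower in the positive fraction. Of the choroid plexus and ependymal markers 2 of 6 were lower too. All 6 border-associated macrophage markers (median log2 3.54) and 3 of 6 neuron markers were higher, and the part of these cells was not tested. With the mouse block only Ifit2 was still called lower, Oas1a was no longer called higher (adjusted p = 0.0729) and Ifitm3 was (adjusted p = 0.0139, edgeR). Without mouse 209 or mouse 277, 1 member was lower, beside 22.4% and 20.2% of all genes.

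A like question was put to the Aldh1l1-NuTRAP mice, with bead-bound set against unbound RNA. Here 17 of 33 tested members were higher in the positive fraction and 1 was lower, where 26.8% of all 13319 genes were higher and 24.8% lower. Of the 17, 4 (Ddx58, Usp18, Gbp2 and Parp9) passed the filter only through the positive fraction. The median log2 difference was 0.77 over tested members and 0.04 over all genes. With 3 mice the count rests on each of them: 8 members were higher without mouse 293, 9 without mouse 294 and 20 without mouse 290. The share of all genes called higher moved with it, to 14.8% without mouse 293 or mouse 294 and 34.6% without mouse 290. Scaling by library totals alone moved the median of all genes to -0.31 and left 11 members higher and 3 lower, with 18.3% of all genes higher and 36.2% lower. All log2 values here are relative to the TMM scaling.

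Ifitm2, which restricts virus entry, and Ifit3, which binds RNA, had the largest differences. Ifitm2 was 24.7, 14.4 and 15.1 CPM in the positive fractions of mice 290, 293 and 294, and 3.87, 5.40 and 5.22 CPM in their negative fractions. Its log2 difference was 2.23 ± 0.28 (adjusted p = 0.00065, edgeR). Ifit3 was 39.3, 33.0 and 31.6 CPM against 12.4, 9.94 and 9.37 CPM, a log2 difference of 2.06 ± 0.20 (adjusted p = 0.000207, edgeR). Each positive library of both genes exceeded each negative library. Ifit1, its neighbour on chromosome 19, was 6.63, 3.21 and 2.92 CPM against 10.3, 4.51 and 3.09 CPM and gave no call (-0.12 ± 0.54). Ifit2 gave none either (0.37 ± 0.26).

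The 4 GTPases that passed the filter in both fractions were higher in the astrocyte fraction. Irgm1, a regulator of the other immunity-related GTPases and of autophagy, was 14.8, 14.9 and 14.4 CPM against 7.86, 8.82 and 6.80 CPM (log2 1.25 ± 0.18, adjusted p = 0.00118, edgeR). Gbp3 (1.55 ± 0.24), Gbp7 (1.45 ± 0.27) and Igtp (1.24 ± 0.20) were also higher, each with positive and negative libraries apart. Gbp2 (0.91 ± 0.27) passed the filter only through the positive fraction, which set its direction. Of the sensors, Eif2ak2 was 28.4, 27.5 and 26.7 CPM against 17.4, 13.1 and 12.1 CPM (log2 1.31 ± 0.20), and Trim25 (1.19 ± 0.18) was higher as well. Ddx58 (1.25 ± 0.39) was also called higher, but like Gbp2 it passed the filter only through the positive fraction. Ifih1 (0.96 ± 0.35) fell just short (adjusted p = 0.0504, edgeR) and passed with the mouse block (adjusted p = 0.00879, edgeR), as did Oasl2 (adjusted p = 0.0255, edgeR).

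Adar was the exception. It was 51.4, 98.4 and 78.4 CPM in the astrocyte positive fractions and 128, 232 and 194 CPM in the negative fractions, lower in each mouse, with a log2 difference of -0.93 ± 0.29 (adjusted p = 0.0292, edgeR). The call was lost without mouse 293 or mouse 294 (adjusted p up to 0.148 over the alternatives, edgeR or DESeq2). Receptors differed modestly: Ifngr1 by 0.77 ± 0.15, Ifnar2 by 0.73 ± 0.19 and Ifnar1 by 0.41 ± 0.14, the last lost in 6 of 10 alternatives. None of the 3 tested transcription factors passed, though Stat2 was called lower with the mouse block (adjusted p = 0.0123, edgeR). Parp14 (0.23 ± 0.39) and Dtx3l (0.11 ± 0.35) were not called. Parp9 (1.70 ± 0.24) was, but it passed the filter only through the positive fraction, which set its direction. Bst2 (1.73 ± 0.47), Usp18 (1.54 ± 0.51) and Ifitm3 (0.98 ± 0.28) were higher, each losing its call without mouse 293 or mouse 294, and Usp18 also without mouse 290. Usp18 too passed the filter only through the positive fraction. In the same comparison the 6 choroid plexus and ependymal markers summed to 2928 to 3407 CPM in the positive fraction against 495 to 657 CPM in the negative fraction, 5 of them higher, and the 6 endothelial markers to 56.9 to 84.5 against 70.1 to 129 CPM, none of them called. All 6 neuron markers (1271 to 1740 against 5578 to 6831 CPM), all 6 microglial markers (58.3 to 113 against 282 to 424 CPM) and 5 of 6 oligodendrocyte markers (1109 to 1320 against 5527 to 6778 CPM) were lower, and the part of these cells was not tested.

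**Figure D2:**
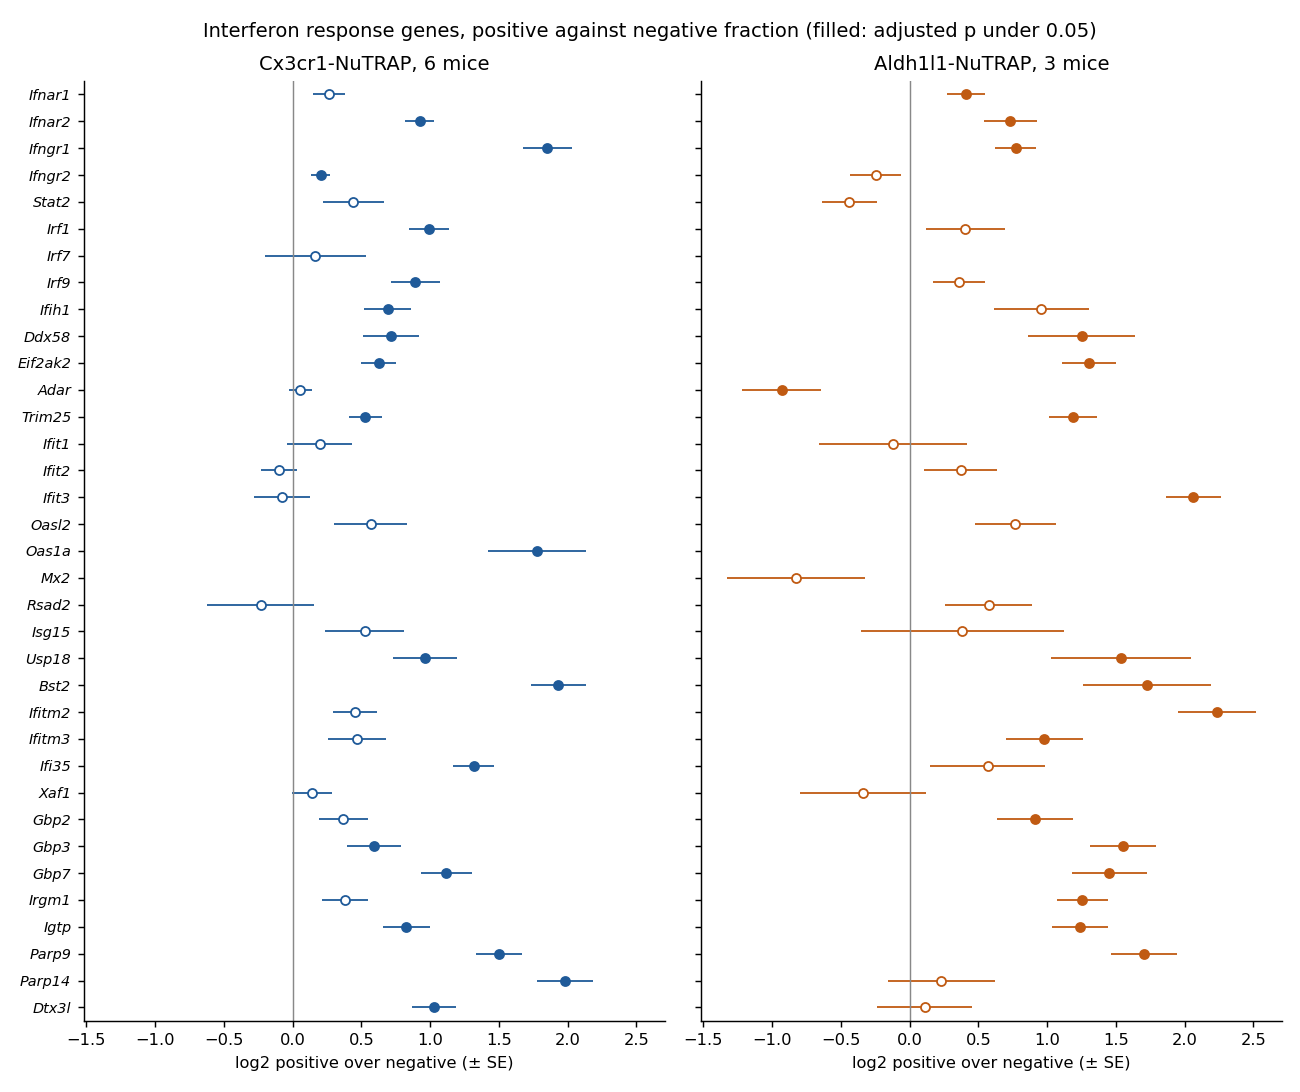
Log2 difference of the positive over the negative fraction for each member tested in either line, with its SE; left, 6 Cx3cr1-NuTRAP mice, and right, 3 Aldh1l1-NuTRAP mice, with filled points at an adjusted p under 0.05. Parp14 and Ifngr1 lie far right on the left panel, at 1.98 and 1.85, and Ifit3 and Ifitm2 far right on the right panel, at 2.06 and 2.23. Bst2 lies to the right on both. So does Parp9, but on the right panel it passed the filter only through the positive fraction, which set its direction.

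The positive fractions of the lines were then set against each other. Of 34 tested members, 8 were higher in the Cx3cr1 and 6 higher in the Aldh1l1 positive fraction, where 33.1% of all genes were higher in the Cx3cr1 and 30.6% in the Aldh1l1 positive fraction, so the shares of members called were below those of all genes in both directions. Oas1a, which passed the filter only through the Cx3cr1 positive fraction (log2 2.68 ± 0.53), Parp14 (2.40 ± 0.30), Ifngr1 (1.36 ± 0.26), Adar (1.20 ± 0.18), Stat2 (1.15 ± 0.34), Ifi35 (0.96 ± 0.31), Irf1 (0.73 ± 0.24) and Dtx3l (0.73 ± 0.21) were higher on the Cx3cr1 side. Ifit3 (-1.53 ± 0.27), Ifitm2 (-1.21 ± 0.23), Eif2ak2 (-0.60 ± 0.17), Trim25 (-0.58 ± 0.14), Gbp3 (-0.56 ± 0.22) and Irgm1 (-0.51 ± 0.17) were higher on the Aldh1l1 side. Of those with a promoter in the table, 2 of 7 on the Cx3cr1 side, 5 of 6 on the Aldh1l1 side and 10 of 18 uncalled members held the ISRE core, and 4, 1 and 7 of them the GAS core; these differences were not tested. Bst2 differed by 0.65 ± 0.36, Ifitm3 by -0.43 ± 0.29 and Gbp7 by -0.02 ± 0.22, none of which passed.

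This direct contrast depends on scaling and on the line. With library totals alone the median of all genes moved from 0.08 to 0.39, 13 members were higher in the Cx3cr1 and 2 (Ifit3 and Ifitm2) in the Aldh1l1 positive fraction, beside 46.2% and 21% of all genes, and the calls for Eif2ak2, Trim25, Gbp3 and Irgm1 were lost with no change of sign. Cell type and mouse line cannot be told apart in it, nor can time since induction, since the study describes a longer wait after tamoxifen for Cx3cr1-NuTRAP than for Aldh1l1-NuTRAP brains in its tests of the models. Markers of other cells moved with it: on the Cx3cr1 side all 6 neuron markers (median log2 1.47), 5 of 6 oligodendrocyte markers (median 1.67) and all 6 border-associated macrophage markers were higher, and 5 of 6 choroid plexus and ependymal markers were lower. Neuron markers summed to 4479 to 6906 CPM in the Cx3cr1 positive fraction, 6223 to 6570 CPM in its input and 1271 to 1740 CPM in the Aldh1l1 positive fraction, and the part of these cells in the member values was not tested.

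The difference in the positive to negative ratio, fitted as an interaction, takes each line against its own unbound RNA. It was called for 13 of 35 tested members, 7 with a higher ratio in Cx3cr1-NuTRAP mice and 6 with a higher ratio in Aldh1l1-NuTRAP mice, where 29.9% and 25.5% of all genes were called. The former were Parp14 (log2 1.80 ± 0.41), Ifngr1 (1.13 ± 0.28), Adar (1.03 ± 0.24), Dtx3l (0.94 ± 0.34), Stat2 (0.93 ± 0.38) and Ifngr2 (0.49 ± 0.16), with Oas1a (2.95 ± 0.88), which passed the filter only through the Cx3cr1 positive fraction, where it is high. The latter were Ifit3 (-2.11 ± 0.33), Ifitm2 (-1.73 ± 0.31), Gbp3 (-0.92 ± 0.32), Irgm1 (-0.83 ± 0.27), Eif2ak2 (-0.64 ± 0.23) and Trim25 (-0.62 ± 0.20). Several members were higher in the positive fraction of both lines with no difference in ratio past the threshold, among them Bst2 (0.24 ± 0.46), Gbp7 (-0.29 ± 0.33) and Igtp (-0.37 ± 0.27), for which a p above the threshold does not show that the lines act alike.

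Some of these calls were fragile. Stat2 was lost in 9 of 16 alternatives and, like Dtx3l, with the mouse block, under which Ifi35 was called (adjusted p = 0.0295, edgeR); the count of members with a higher Cx3cr1 ratio was 4 without mouse 192 or mouse 194, beside 25.6% and 26.5% of all genes. Oas1a was lost without mouse 290, whose negative fraction held 2.05 CPM against 0.481 and 0.381 CPM in the other two. With library totals alone 12 members had a higher ratio in Cx3cr1-NuTRAP and 2 in Aldh1l1-NuTRAP mice, around a median of all genes of 0.39 instead of 0.11, beside 40.9% and 18.6% of all genes.

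**Figure D3:**
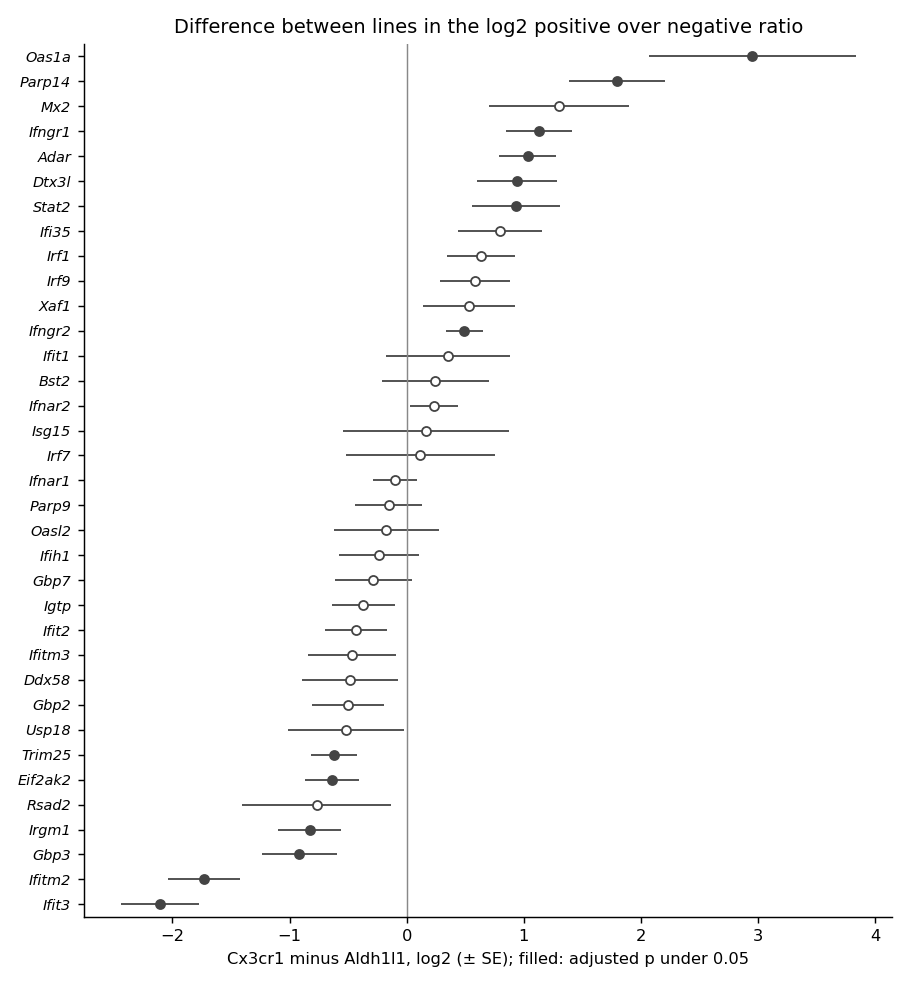
Difference between the lines in the log2 positive over negative ratio (Cx3cr1 minus Aldh1l1, with SE) for the 35 members tested, in order of size; filled points have an adjusted p under 0.05. Parp14 (1.80) stands near the top, under Oas1a (2.95), which passed the filter only through the Cx3cr1 positive fraction, and Ifit3 (-2.11) and Ifitm2 (-1.73) at the bottom, with most members between -1 and 1.

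The negative fractions, which are the RNA left after the beads had taken the tagged ribosomes of each line, were also compared. Between them 0 of 33 tested members were called by edgeR, with 5 at an unadjusted p under 0.05; 0.125% of all genes were higher and 0.125% lower, so few genes of any kind were called. DESeq2 called 1 member in each direction: Ifit3, higher in the Cx3cr1 negative fraction (edgeR log2 0.59 ± 0.14, adjusted p = 0.119), and Mx2, lower (-1.03 ± 0.29, adjusted p = 0.171, edgeR), which passed the filter only through the Aldh1l1 negative fraction and so could be called in that direction alone. Ifit3 also passed in edgeR without mouse 290. Its direction here, higher in the Cx3cr1 line, was opposite to that between the positive fractions.

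Within Cx3cr1-NuTRAP mice, the negative fraction against input gave 0 called members of 32, with 6 at an unadjusted p under 0.05 by edgeR and 0 by DESeq2, where 1.41% of all genes were higher and 4.7% lower. With the mouse block 3 members were higher (Bst2, Ifitm3 and Eif2ak2, by 0.40, 0.33 and 0.22 without the block) and 1 was lower (Adar, -0.18), beside 17.7% and 19.5% of all genes. Over the 32 tested members the log2 difference ran from -0.31 to 0.50.

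Input and whole tissue come from the same mice, except that mouse 155 has no whole tissue library. RNA was recovered differently and the whole tissue samples are titled as slices, so the piece of brain may differ too. Of 32 tested members, 1 was higher in input (Stat2, log2 0.38 ± 0.12) and 9 were lower, where 16.3% of all genes were higher and 14.2% lower. The lower members were Gbp3 (-0.97 ± 0.23), Parp14 (-0.86 ± 0.25), Gbp2 (-0.85 ± 0.22), Gbp7 (-0.83 ± 0.16), Oasl2 (-0.68 ± 0.24), Ifih1 (-0.65 ± 0.16), Trim25 (-0.49 ± 0.12), Ddx58 (-0.48 ± 0.17) and Ifit2 (-0.35 ± 0.09). Gbp7 was 4.15 to 6.55 CPM in input and 7.09 to 12.5 CPM in whole tissue, without overlap. The median log2 difference was -0.32 over tested members and 0.00 over all genes.

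Markers of other cells moved with this comparison too. All 6 endothelial markers were lower in input, summing to 86.3 to 99.3 CPM against 131 to 256 CPM in whole tissue, and 4 of 5 tested pericyte and smooth muscle markers were lower too, while 0 of the 6 microglial markers were called. Of the oligodendrocyte markers 5 of 6 were lower, summing to 4242 to 4912 CPM against 5879 to 8017 CPM, and of the neuron markers 4 of 6 were higher and 1 was lower. Of the astrocyte markers 2 of 6 were lower. Choroid plexus and ependymal markers summed to 838 to 1011 CPM against 226 to 1013 CPM, with 2 of 6 higher and 2 lower. The part of these cells in the member values was not tested. Whole tissue of mouse 210, at 4260949 counts, was the shallowest library. Its markers differed from the other whole tissue libraries as well. Neuron markers summed to 6092 CPM against 4866 to 5121 CPM, and endothelial markers to 131 CPM against 225 to 256 CPM. The part of depth or of these cells was not tested. With the mouse block Rsad2 and Ifit1 were called lower as well (adjusted p = 0.0319 and 0.0236, edgeR). Without mouse 210, 11 members were lower, beside 19.4% of all genes, and without mouse 209, 5 were, beside 9.29%. With a filter of at least 100 counts 2 of the 16 members still tested were lower, beside 14.6%. Stat2 lost its call without mouse 192, 194, 209 or 277.

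**Figure D4:**
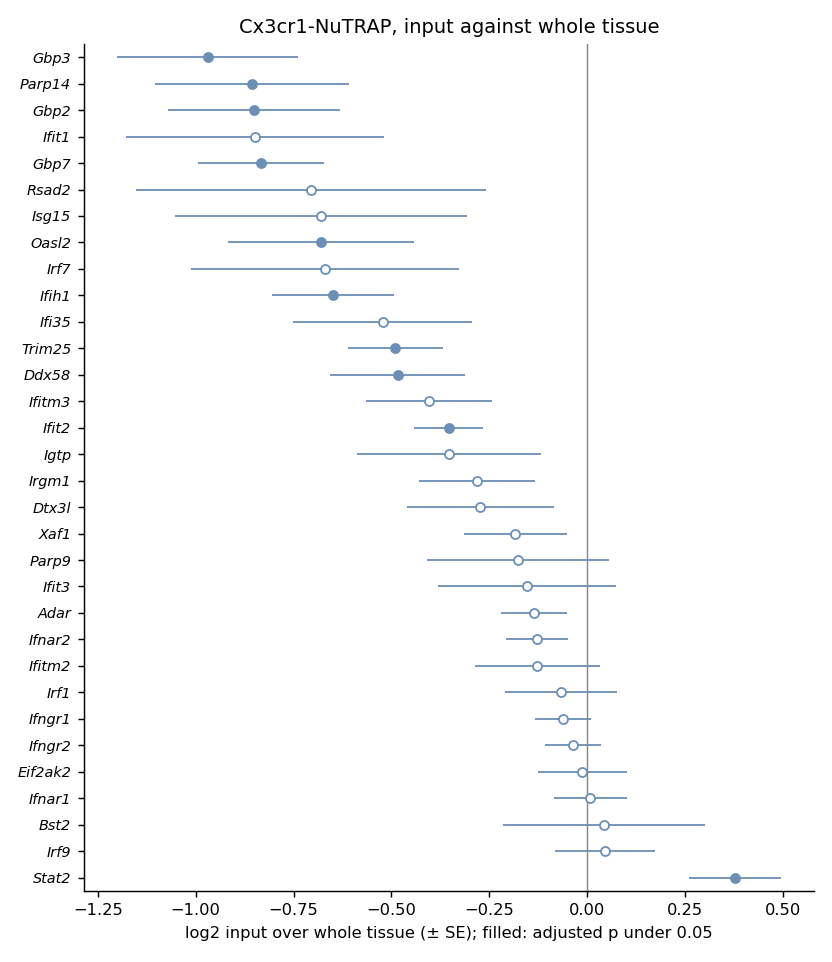
Log2 difference of input over whole tissue in Cx3cr1-NuTRAP mice for the 32 members tested, with SE; filled points have an adjusted p under 0.05. The 9 filled points on the left run from Gbp3 (-0.97) to Ifit2 (-0.35), and Stat2 (0.38) is the filled point on the right.

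The mice themselves differed in their antiviral effector levels, with the same 3 mice on the high side in every fraction. The 8 antiviral effectors summed to 51.7, 53.0 and 45.2 CPM in the inputs of mice 209, 210 and 277, and to 40.2, 39.1 and 36.3 CPM in those of mice 155, 192 and 194. In the positive fraction the sums were 59.4, 63.1 and 57.7 CPM for the former and 36.6, 41.2 and 32.0 CPM for the latter. In each of the 4 Cx3cr1 groups mice 209, 210 and 277 were above the others measured, and mouse 194 was lowest. No other class of members divided these mice in all 4 groups. In the positive fraction the GTPases summed to 48.9 CPM in mouse 210 and 51.7 CPM in mouse 194. In the negative fraction the ISG15 system summed to 3.49 CPM in mouse 277 and 5.74 CPM in mouse 155.

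Among single members, Irf7 in the positive fraction was 5.45, 5.69 and 5.42 CPM in mice 209, 210 and 277 and 2.84, 1.90 and 1.42 CPM in mice 155, 192 and 194, and mouse 194 had the lowest Irf7 and Usp18 of its group in all 4 Cx3cr1 groups. Rsad2 was highest in mouse 210 in all 4. Ifnar1, Stat2 and Irf9 ran the other way in the positive fraction, which Ifngr2 and Irf1 did not. Ifnar1 was 66.3, 66.8 and 70.8 CPM in mice 209, 210 and 277 but 93.4, 95.5 and 94.2 CPM in mice 155, 192 and 194. Stat2 was 31.2, 31.8 and 42.2 CPM against 76.7, 49.0 and 78.5 CPM, and Irf9 was 14.7, 16.0 and 18.7 CPM against 26.8, 21.2 and 31.8 CPM. No such gap in Ifnar1 was seen in input, at 68.6 to 74.1 CPM.

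In the positive fraction several marker sums divided the same mice, most of these sums being higher in mice 209, 210 and 277. The low monocyte and neutrophil sums divided them from the others in all 4 Cx3cr1 groups: 2.21 to 3.97 against 1.82 to 2.01 CPM in input, 3.33 to 4.12 against 1.98 to 2.72 CPM in the negative fraction, 4.17 to 4.66 against 1.27 to 2.18 CPM in the positive fraction and 2.86 to 3.64 against 1.26 to 2.09 CPM in whole tissue. In the positive fraction endothelial markers summed to 164, 177 and 161 CPM in mice 209, 210 and 277 and to 74.9, 99.3 and 103 CPM in mice 155, 192 and 194. Neuron markers summed to 6906, 6404 and 6138 CPM against 4687, 5146 and 4479 CPM, and astrocyte markers to 2997, 3029 and 3023 CPM against 2427, 2337 and 2019 CPM. Pericyte and smooth muscle markers summed to 125, 125 and 116 CPM against 65.2, 85.6 and 50.2 CPM, and choroid plexus and ependymal markers to 1033, 1052 and 917 CPM against 523, 858 and 226 CPM. Border-associated macrophage markers ran the other way, at 72.9, 89.0 and 96.6 CPM against 105, 103 and 237 CPM. Microglial markers did not divide the mice: they summed to 2366, 2794 and 3301 CPM against 3234, 3708 and 5646 CPM, with mouse 277 above mouse 155. Nor did lymphocyte markers or oligodendrocyte markers, the latter at 3340, 3311 and 2713 CPM against 2804, 3018 and 1225 CPM. In whole tissue astrocyte markers ran the other way, at 3468, 3770 and 3596 CPM against 3849 and 3794 CPM in mice 192 and 194. The labels name nothing that separates these mice besides their numbers, the division was seen in the values and not tested, and the part of other cells in it was not tested.

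Mouse 290 stood out among the Aldh1l1-NuTRAP mice. Isg15 was 7.08 CPM in its positive and 7.02 CPM in its negative fraction, against 1.35 to 2.71 CPM in both fractions of the other two mice, and Bst2 in its positive fraction was 17.2 CPM against 6.32 and 7.10 CPM. Its libraries were the shallowest of that line, at 11910851 and 8782235 counts. Its positive and negative fractions also had the highest monocyte and neutrophil sums of that line (4.57 and 5.64 CPM against 0.717 to 2.06 CPM), and its positive fraction had more microglial markers (113 against 58.3 and 62.5 CPM) and fewer astrocyte markers (10356 against 17794 and 16151 CPM). The part of depth or of these cells was not tested.

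**Figure D5:**
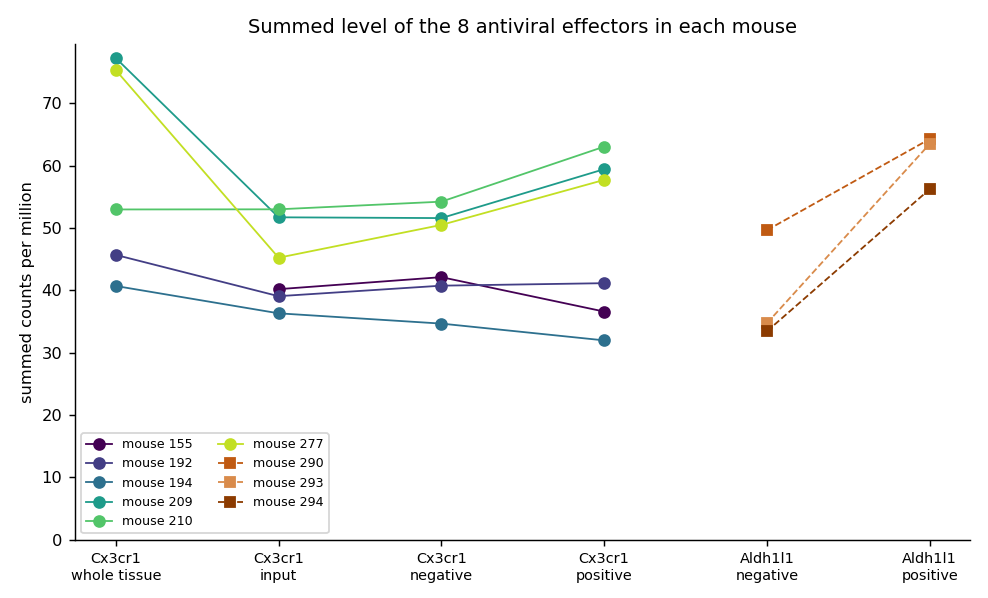
Summed level in CPM (axis from 0) of the 8 antiviral effectors in each mouse and fraction, with lines joining libraries of 1 mouse. Among Cx3cr1-NuTRAP mice, 209, 210 and 277 lie above 155, 192 and 194 in every fraction, mouse 155 having no whole tissue library. All 3 Aldh1l1-NuTRAP mice rise from the negative to the positive fraction, the highest sum there being 64.3 CPM.

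Beyond the members, 79 further genes of the pathway were listed, of which 78 were in the table. Of 57 tested between the Cx3cr1 positive fraction and input, 37 were higher and 2 lower, the background again being 23.3% and 25.6% of all genes. The 10 with the largest differences were all higher. They included the phosphatase Ptpn6 (SHP-1), a brake on JAK signalling (3.68 ± 0.21), the myeloid factors Irf5 (3.31 ± 0.22) and Irf8 (3.30 ± 0.18), and Tmem173, the DNA-sensing adaptor STING (3.16 ± 0.26). The immunoproteasome subunits Psmb8 (3.02 ± 0.15) and Psmb9 (2.70 ± 0.26), the nucleic acid receptors Tlr9 (2.71 ± 0.22) and Tlr7 (2.67 ± 0.19), the DNA-binding Ifi204 (2.96 ± 0.23) and the lysosomal thiol reductase Ifi30 (2.61 ± 0.20) completed the set. All 10 differences were larger than that of Bst2, the member that differed most; Ifi204, Tlr9 and Psmb9 passed the filter only through the positive fraction.

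By class, 4 of 9 kinases and transcription factors, 5 of 9 tested sensing adaptors and kinases, 2 of 5 negative regulators and 26 of 34 tested further induced genes were higher in that comparison. The 2 lower genes were both negative regulators. In the Aldh1l1 positive fraction, 17 of 49 tested pathway genes were higher and 7 lower than in the negative fraction, beside 26.8% and 24.8% of all genes. Between the positive fractions of the lines, 25 of 58 were higher on the Cx3cr1 and 13 on the Aldh1l1 side, beside 33.1% and 30.6% of all genes.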

How the data were processed

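RNA was measured in 29 libraries of 9 mice. The authors aligned strand-specific poly(A) reads to the mm10 genome and deposited estimated counts per gene. Fractional entries made up 82.4% of the counts above 0 (tolerance 1e-06), and all were rounded before testing. The deposited log2 columns, which the authors had normalized with DESeq, were not used. All raw columns were matched to samples through their labels.

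Genes with over 20 counts in every library of one or more of the compared groups were tested with edgeR 4.0.16 (quasi-likelihood test, TMM scaling, robust dispersion, two-sided, no mouse term) in R 4.3.3, with Benjamini-Hochberg adjustment over all genes tested and a threshold of 0.05. Levels are counts per library total in CPM, divided by the length of the GENCODE exon union where given per kb. Alternatives were DESeq2 1.42.0, other scalings and filters, all groups in one fit, the mouse as a replicate block and leaving out each mouse. The scripts were tested on simulated counts. Plots were drawn with matplotlib 3.10.9 in Python 3.11.15, from tables made with numpy 2.4.6 and pandas 2.3.3.

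Members and lists were chosen with earlier results of these data known. All members were described by name, and of the pathway genes the 10 with the largest called difference between the Cx3cr1 positive fraction and input. Fractions with one number come from the same mouse, which is the source of the pairing. Deviations from the group means correlated over 0.1 in 3 of 6 pairs of positive and input libraries, 3 of 6 of positive and negative, 0 of 5 of positive and whole tissue, 5 of 6 of negative and input, 0 of 5 of input and whole tissue, and 3 of 3 Aldh1l1-NuTRAP pairs. Ifit, Gbp, Ifitm, Oas and Irgm genes have close relatives, and reads shared between them may have been split in counting, so their single values are less certain. Totals per library ranged from 4260949 to 26857866 counts.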

Additional observations from a re-analysis of the deposited data

Results flagged for a closer look

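In groups of 5 or 6 libraries, 10 of 152 member and group combinations had 1 library far from its neighbours by Dixon's criterion, which chance alone meets in about 1 of 20 groups. In the Cx3cr1 positive fraction these were Ifngr1 in mouse 194 (104 CPM, the others 45.7 to 65.9 CPM), Parp9 in mouse 194 (14.2 CPM, the others 7.35 to 9.32 CPM) and Trim25 in mouse 155 (10.2 CPM, the others 12.5 to 13.8 CPM). In the Cx3cr1 negative fraction mouse 155 had the lowest Adar (164 CPM, the others 210 to 235 CPM) and the highest Isg15 (4.7 CPM, the others 1.63 to 2.64 CPM). In input, Stat2 was highest in mouse 277 (47.3 CPM, the others 37.7 to 40.3 CPM) and Ifitm2 in mouse 194 (7.84 CPM, the others 5.19 to 6.08 CPM). In whole tissue all 3 were in mouse 210, the shallowest library, with the highest Ifnar1 (96.7 CPM, the others 60.6 to 69.9 CPM), the lowest Adar (199 CPM, the others 268 to 284 CPM) and the lowest Ifi35 (0.939 CPM, the others 3.42 to 4.26 CPM). That library also differed in its marker sums, as given above, and the part of depth or of other cells was not tested.

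The log2 ratio of positive to negative fraction differed between the lines, by the interaction term in edgeR, for 13 members. It was higher in Cx3cr1-NuTRAP mice for Oas1a (2.95, tested only through the Cx3cr1 positive fraction), Parp14 (1.8), Ifngr1 (1.13), Adar (1.03), Dtx3l (0.94), Stat2 (0.93) and Ifngr2 (0.49). It was lower there for Ifit3 (-2.11), Ifitm2 (-1.73), Gbp3 (-0.92), Irgm1 (-0.83), Eif2ak2 (-0.64) and Trim25 (-0.62).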

How the results depend on the processing

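Of 3929 values of single members under an alternative, 3673 kept their direction and side of the threshold, 166 lost and 79 gained a call, 11 uncalled values changed sign by more than their SE and 0 called values changed sign. With library totals alone, the Aldh1l1 positive fraction against its negative had 11 members higher and 3 lower, the Cx3cr1 against the Aldh1l1 positive fraction 13 and 2, and the ratio between lines 12 and 2. With at least 100 counts, 10 members were higher in the Aldh1l1 positive fraction, and 2 were lower in input than in whole tissue. Fewer members were tested under that filter, for Cx3cr1 positive against input 21 and not 34. In one fit of all groups, 2 members were lower in the Aldh1l1 positive fraction and 0 higher in input than in whole tissue. DESeq2 called 1 member higher and 1 lower between the negative fractions. The share of all genes called moved with the setting too, and is given above for library totals. For Cx3cr1 positive against input the share higher was 23.3% in the main fit, 22.5% in one fit and 26.9% with at least 100 counts.

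With the mouse as a replicate block (pairing), 1 member was lower in the Cx3cr1 positive fraction than in whole tissue, 2 were lower in the Aldh1l1 positive fraction, and 3 were higher and 1 lower in the Cx3cr1 negative fraction than in input. No other count moved by over 1.5 times under the block.

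The share of all genes called moved with the mouse left out. For Cx3cr1 positive against input, 18.2% of all genes were higher without mouse 277 and 23.8% without mouse 155. These gave the lowest and highest member counts of that comparison. Without each mouse in turn, counts of members ranged as follows. Cx3cr1 positive against input had 20 to 25 higher and 0 to 1 lower, against negative 16 to 22 and 0, and against whole tissue 10 to 15 and 1 to 3. Aldh1l1 positive against negative had 8 to 20 higher and 0 to 3 lower. Between the positive fractions there were 6 to 11 and 5 to 6, between the negative fractions 0 to 1 and 0, from negative to input 0 and 0 to 1, from input to whole tissue 0 to 1 and 5 to 11, and for the ratio 4 to 8 and 4 to 6. The Aldh1l1-NuTRAP line has 3 mice, and members near 20 counts are imprecise at this depth. The cause of the differences was not tested.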
